A study of Rattus norvegicus with 31 samples.

Results

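Muscle protein loss runs through a small set of genes, and 9 of them were followed here across cold exposure and loss of Ucp1 in rat calf muscle. The set holds the transcription factors Foxo1 and Foxo3, the ubiquitin ligases Fbxo32 and Trim63, the autophagosome proteins Map1lc3b and Gabarapl1, the autophagy receptors Sqstm1 and Bnip3, and the lysosomal protease Ctsl. They were picked by symbol. The deposited table listed 8 of the 9 among 11289 genes, and all 8 passed the filter on low counts that left 10082 genes for testing; Foxo3 is not analysed here.

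The tissue was gastrocnemius from female Sprague Dawley rats aged 7 months and fed chow, with 1 library per animal. Controls (n = 8) and Ucp1 knockouts (n = 7) stayed at room temperature for 14 days, and other controls (n = 8) and knockouts (n = 8) spent 14 days at 4 °C. The labels describe the knockout as Ucp1 KO and do not say how the allele was made or whether it is limited to a tissue. Genotype was taken from the labels, since Ucp1 itself is not analysed here. Nothing in the labels names litters, cages or batches; each group has its own run of consecutive animal numbers, and a batch that went with those numbers cannot be told apart from a group difference.

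Muscle shrinks when its proteins are broken down faster than they are made. FoxO transcription factors, held out of the nucleus by insulin and IGF signalling through Akt, switch on the muscle ligases Fbxo32 (atrogin-1) and Trim63 (MuRF1), which mark proteins for the proteasome, and also autophagy genes. In autophagy, Atg8 proteins such as those from Map1lc3b and Gabarapl1 are attached to a growing membrane, receptors such as Sqstm1 and Bnip3 tie cargo to it, and lysosomal proteases such as cathepsin L digest the contents. Fasting, disuse, denervation and glucocorticoids are known to raise many of these transcripts together in muscle, and in the cold this tissue is also where shivering takes place.

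Total counts ran from 6.56 to 11.9 M per library, with a mean of 9.30 ± 1.26 M (SD, n = 31). The tissue label was checked against muscle fibre markers, of which 11 of 13 were listed (not Myh2 and Myh4). None of the 11 was at 0 in any group, and their summed level ran from 113380 to 245113 CPM. Levels here are in CPM, reads per 1 M reads of a library after TMM scaling. The 3' tag kit gives 1 tag per transcript, so levels were set beside each other between genes without a length correction. How fully the reads of each gene were assigned was not tested, so the order of genes by level is approximate. Room temperature control animals 1 and 2, which stood apart from the others in their group, are in every value unless it is said that they were left out.

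No member of the set passed the test in any comparison, and the clearest difference was a lower level of Trim63 in cold control rats, which did not pass the correction over all genes. In cold against room temperature, 0 of 8 members had an adjusted p under 0.05 in controls, where 0.853% of all genes did (edgeR quasi-likelihood test, Benjamini-Hochberg over 10082 genes). In knockouts it was also 0 of 8, against 1.38% of all genes. With the cold effect averaged over both genotypes it was 0 of 8, against 5.65%.

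For knockout against control the count was 0 of 8 at room temperature, where 0% of all genes passed, and 0 of 8 in the cold, where 0.00992% passed, which is 1 gene. The interaction, the difference between the cold effects of the genotypes, gave 0 of 8 and 0% of all genes. The comparisons share groups of animals, so their values for a member are set side by side and are not independent. DESeq2 also called 0 members in each of these 6 comparisons, while over all genes it called 1 for the knockout at room temperature and 1 for the interaction. At an unadjusted p under 0.05 the members numbered 1 for cold in controls (14.2% of all genes), 2 for cold in knockouts (14.3%), 2 for cold averaged (19.5%), 1 for the knockout at room temperature (7.06%), 4 for the knockout in the cold (6.28%) and 1 for the interaction (7.31%). Over all genes, the knockout at room temperature gave 712 genes at that level and the interaction 737.

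**Figure D1:**
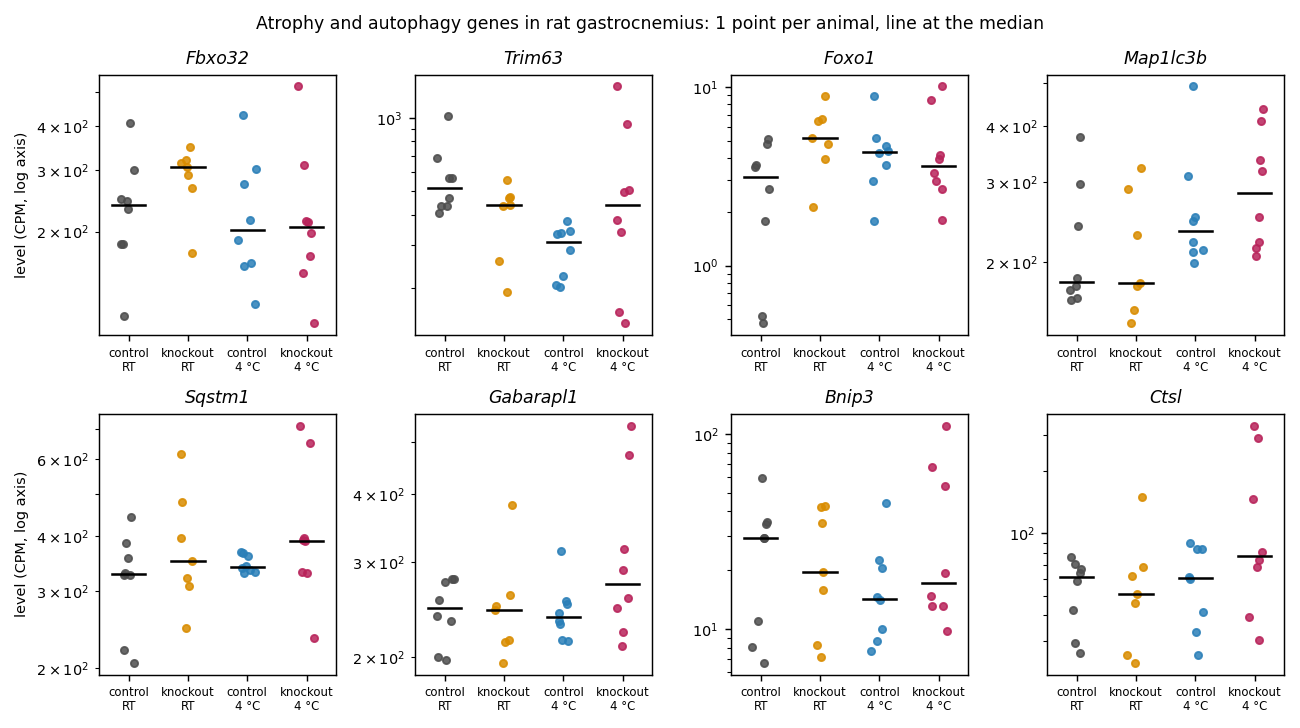
Level of each listed member in CPM on a log axis, 1 point per animal, for controls (n = 8) and knockouts (n = 7) at room temperature (RT) and controls and knockouts (n = 8 each) at 4 °C; the line is the group median. For Trim63 the cold controls all lie below the room temperature controls, and the cold knockouts spread from 143 to 1346 CPM.

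Foxo1, the transcription factor that acts upstream of the ligases, had the lowest mean level of the members. It held rank 7257 of the 10082 genes by mean level, with 4 to 93 reads per library. Control rats at room temperature ranged from 0.474 to 5.14 CPM with a median of 3.12, and knockouts at room temperature from 2.12 to 8.93 with a median of 5.17. In the cold, controls ran from 1.79 to 8.91 (median 4.31) and knockouts from 1.81 to 10.1 (median 3.63). All groups overlapped. The fitted level was higher in knockouts than in controls at room temperature by 0.95 ± 0.41 on the log2 scale (SE), with an unadjusted p of 0.0252 and an edgeR adjusted p of 0.698. Without control animals 1 and 2 that difference was 0.69. Cold against room temperature gave 0.67 ± 0.40 in controls and -0.22 ± 0.39 in knockouts (edgeR adjusted p = 0.441 and 0.883), and the interaction was -0.89 ± 0.56 (edgeR adjusted p = 0.792).

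Fbxo32, the F-box protein atrogin-1 that brings substrates to an SCF ubiquitin ligase, showed no difference between groups that the test could resolve. It ran from 115 to 407 CPM (median 238) in room temperature controls, from 174 to 349 (median 305) in room temperature knockouts, from 124 to 431 (median 202) in cold controls and from 109 to 520 (median 206) in cold knockouts. The 4 ranges overlap over most of their length. The cold difference in controls was -0.04 on the log2 scale with a 95% interval from -0.59 to 0.50, and in knockouts -0.29 with an interval from -0.85 to 0.27. Changes of up to about the size of those bounds cannot be told from none with these animals.

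Trim63, the RING-finger ligase MuRF1 that acts on thick filament proteins, had the highest mean level of the members and the clearest cold difference. Room temperature controls ran from 405 to 1015 CPM with a median of 517 (mean 572 ± 202, SD, n = 8). Cold controls ran from 202 to 378 with a median of 309 (mean 288 ± 69.0, SD, n = 8). The highest cold control therefore lay below the lowest room temperature control, a separation found for 0.436% of all genes in this comparison. It was the only member whose groups did not overlap: in cold against room temperature in knockouts, and in knockout against control at room temperature and in the cold, 0 of 8 members separated, against 0.546%, 0.0595% and 0.00992% of all genes. The fitted difference was -0.99 ± 0.32 on the log2 scale (SE; 95% interval -1.64 to -0.33), a ratio of 0.505, with an unadjusted p of 0.0044 and an edgeR adjusted p of 0.140.

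In knockouts the spread of Trim63 was the main feature. Room temperature knockouts ran from 192 to 556 CPM with a median of 439, and cold knockouts from 143 to 1346 with a median of 437. The medians were nearly equal while the cold range was far wider, and it enclosed the room temperature range on both sides. Cold knockout animals 29 and 31 stood at 1346 and 943 CPM, and animals 28 and 25 at 143 and 159. The cold difference in knockouts was 0.42 ± 0.33 (edgeR adjusted p = 0.630), and 0.05 without animal 29.

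The difference between the genotypes in their cold effect on Trim63 was 1.41 ± 0.46 on the log2 scale, with an unadjusted p of 0.0046, rank 88 of all genes by p, and an edgeR adjusted p of 0.523. It was 1.03 without cold knockout animal 29 and 1.16 without control animals 1 and 2. In the cold, knockouts were above controls by 0.90 ± 0.32 (edgeR adjusted p = 0.682), and by 0.54 without animal 29. So the genotypes are not shown to differ in their Trim63 response.

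Whether the Trim63 difference in controls counted as a call depended on the model. It passed when the fit held only the groups compared (-0.98, edgeR adjusted p = 0.0226), with the first principal component of all genes added to the model (-0.90, adjusted p = 0.0401) and with 1 surrogate variable as a covariate (-0.93, adjusted p = 0.0381). It did not pass in any of 31 fits that each left out 1 library, where it ran from -1.05 to -0.82 with edgeR adjusted p from 0.0839 to 0.339. Without control animals 1 and 2 it was -0.73 (edgeR adjusted p = 0.348), and animal 2 was the highest of the room temperature controls at 1015 CPM. Both covariates are built from the same libraries, and Trim63 itself varied along the component (Pearson r = 0.667, group means subtracted).

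The promoter of Trim63 is shown because it carries adjoining matches to sites of the regulators this set is known for. The RefSeq gene entry of Trim63 starts at 151817209, inside the stretch shown, so positions count from the start used in the RefSeq promoter set. It is the stretch of 250 bases before that promoter start in build GRCr8, chr5:151816986-151817235, plus strand, 5′ to 3′, in lower case with the matches in capitals.
Trim63: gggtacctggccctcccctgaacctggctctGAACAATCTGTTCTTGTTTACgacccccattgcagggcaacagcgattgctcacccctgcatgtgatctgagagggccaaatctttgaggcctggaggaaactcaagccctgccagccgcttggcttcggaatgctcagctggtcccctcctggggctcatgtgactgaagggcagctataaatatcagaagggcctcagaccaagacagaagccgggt
The capitals join a match to the palindrome of GAACA and TGTTC set 3 bases apart, a form of the glucocorticoid receptor site, from -219 to -207, and a match to TTGTTTAC, a long form of the FoxO site, from -206 to -199, which contains the shorter form TGTTTAC. Motifs were searched on both strands in windows of 250 bases before and 50 after each promoter start, and 7 of the 9 members had an entry (not Fbxo32 or Foxo3). The Map1lc3b window begins at 66574345, inside its gene entry, which starts at 66571631. Among 33469 rat promoter windows of the same length, TGTTTAC was found in 3.78%, TTGTTTAC in 1.103% and the palindrome in 0.05079%, which is 17 windows. The palindrome was added to the search after this sequence had been read, so its match is a description only. Of the 7 windows, only that of Trim63 held any of these 3 motifs, and other forms of the sites were not searched. A match says that the letters are there, and nothing in these data shows binding.

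Map1lc3b encodes LC3B, the Atg8 protein most used to mark autophagosomes. Its levels ran from 164 to 377 CPM (median 180) in room temperature controls and from 146 to 323 (median 179) in room temperature knockouts. They ran from 199 to 490 (median 234) in cold controls and from 206 to 437 (median 284) in cold knockouts. Both cold medians were above both room temperature medians, and the ranges overlapped. Averaged over genotypes, the cold difference was 0.37 ± 0.16 on the log2 scale (SE; unadjusted p = 0.0227, edgeR adjusted p = 0.166). It was 0.27 ± 0.22 in controls and 0.48 ± 0.23 in knockouts, and the interaction of 0.21 ± 0.31 did not pass (edgeR adjusted p = 0.932). The difference in controls was 0.083 without cold control animal 17, the highest of the study at 490 CPM.

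Control animals 1 and 2 had the highest Map1lc3b of the room temperature controls, at 377 and 297 CPM. Without both animals the averaged difference was 0.52 and passed (edgeR adjusted p = 0.0275), the difference in controls was 0.54 (edgeR adjusted p = 0.277) and the interaction was -0.056. RefSeq names 2 Map1lc3b pseudogenes, so reads could have been split between near-identical copies.

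Gabarapl1, an Atg8 protein of the GABARAP branch, was the steadiest member. Room temperature controls ran from 198 to 280 CPM (median 247), room temperature knockouts from 195 to 383 (median 245), cold controls from 214 to 315 (median 237) and cold knockouts from 209 to 536 (median 274). The highest levels of the study were in cold knockouts, and the lower animals of that group lay within the other ranges. Knockouts in the cold were above controls by 0.39 ± 0.16 (unadjusted p = 0.0258, edgeR adjusted p = 0.748), and by 0.22 without cold knockout animal 31.

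Sqstm1 encodes p62, which binds ubiquitin and LC3 and is itself degraded by autophagy. Its level ran from 206 to 441 CPM (median 328) in room temperature controls, from 247 to 615 (median 351) in room temperature knockouts and from 234 to 714 (median 390) in cold knockouts. Cold controls lay between 330 and 368 CPM (median 340), with a coefficient of variation of 4.55%, against 24.3% in room temperature controls, 31.9% in room temperature knockouts and 38.6% in cold knockouts. The difference in spread was not tested. No mean difference in Sqstm1 reached an unadjusted p under 0.05, and the largest was knockout against control in the cold at 0.31 ± 0.19 (edgeR adjusted p = 0.891), or 0.15 without cold knockout animal 29. RefSeq names 1 Sqstm1 pseudogene.

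Bnip3, a mitophagy receptor of the outer mitochondrial membrane, was the most variable member. Only Foxo1 had a lower mean level among the members, while over all genes Bnip3 lay at the 67.6 percentile. It ran from 6.73 to 59.1 CPM (median 29.3) in room temperature controls, from 7.16 to 42.7 (median 19.6) in room temperature knockouts, from 7.71 to 44.3 (median 14.3) in cold controls and from 9.81 to 110 (median 17.1) in cold knockouts. The spread within each group, from 5.75-fold to 11.2-fold between its lowest and highest animal, was larger than any difference between medians. Knockouts in the cold were above controls by 1.08 ± 0.51 (unadjusted p = 0.0418, edgeR adjusted p = 0.789), and by 0.60 without cold knockout animal 31. Cold itself gave -0.58 ± 0.51 in controls and 0.63 ± 0.52 in knockouts (edgeR adjusted p = 0.618 and 0.663). Leaving out 1 library, the value in controls ran from -0.92 (without cold control animal 19) to -0.30 (without room temperature control animal 5), and it was -0.085 with the first principal component in the model. The value in knockouts was 0.14 without cold knockout animal 31. RefSeq names 8 Bnip3 pseudogenes, so its counts are uncertain where reads match more than 1 copy.

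Ctsl, cathepsin L, ran from 26.3 to 77.0 CPM (median 61.5) in room temperature controls, from 23.6 to 149 (median 51.1) in room temperature knockouts and from 25.7 to 89.8 (median 60.9) in cold controls. In cold knockouts it ran from 30.5 to 333 (median 77.6). Animals 29 and 31, at 333 and 290 CPM, were above every other rat in the study, and the remaining cold knockouts overlapped the other groups. The cold difference in knockouts was 1.12 ± 0.44 on the log2 scale (unadjusted p = 0.0148, edgeR adjusted p = 0.202), 0.75 without cold knockout animal 29 and 1.49 without room temperature knockout animal 10. In controls it was 0.14 ± 0.41 (edgeR adjusted p = 0.896), and the interaction of 0.98 ± 0.60 did not pass (edgeR adjusted p = 0.778).

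Averaged over genotypes, the cold difference in Ctsl was 0.63 ± 0.30 (edgeR adjusted p = 0.236). With the first principal component added to the model it passed both in knockouts (0.91, edgeR adjusted p = 0.00912) and averaged (0.70, adjusted p = 0.00198), and with 1 surrogate variable likewise (0.94, adjusted p = 0.00779, and 0.70, adjusted p = 0.00204). Both covariates are built from the same libraries and gave nearly the same values, so they are not separate support. Ctsl itself varied along the component (Pearson r = 0.885, group means subtracted). Leukocytes also make cathepsins. The 16 leukocyte markers, all listed and none at 0, summed to 78.2 to 372 CPM in room temperature controls, 245 to 483 in room temperature knockouts, 311 to 532 in cold controls and 385 to 596 in cold knockouts, and 4 of the 16 rose in the cold averaged over genotypes. Their part in the level of Ctsl was not tested. In a whole muscle, fewer cells of a type and less RNA per cell cannot be told apart.

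**Figure D2:**
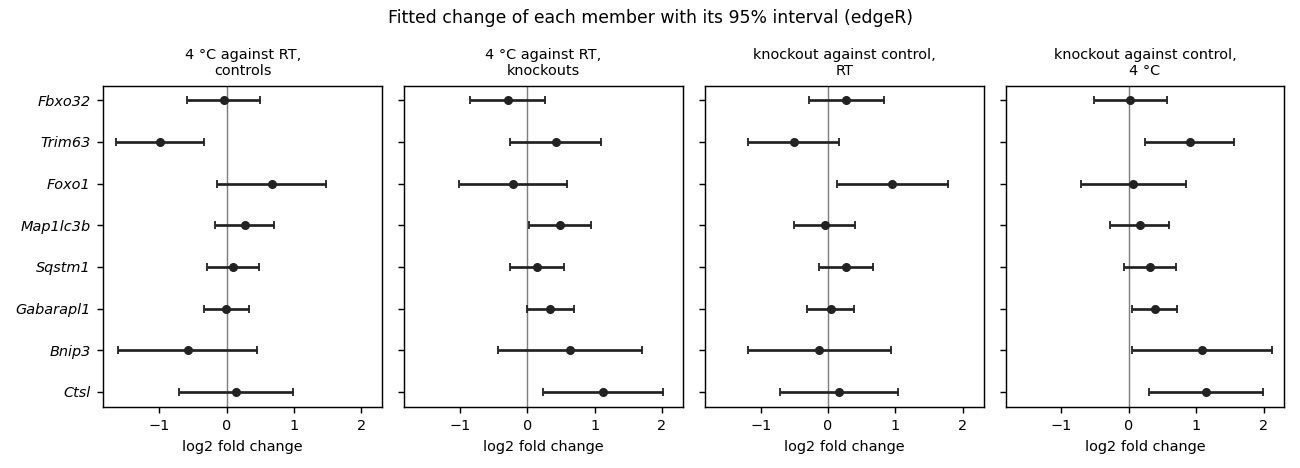
Fitted log2 fold change of each member with its 95% interval (edgeR) for cold against room temperature in controls and in knockouts and for knockout against control at room temperature (RT) and at 4 °C. In the panel for knockout against control at 4 °C all 8 points lie right of 0, and those of Trim63, Gabarapl1, Bnip3 and Ctsl have unadjusted intervals that do not cross it.

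In the cold, all 8 members had a fitted level above that of controls in the knockouts. The median difference was 0.35 on the log2 scale, against 0.037 over all genes tested, of which 5775 of 10082 were higher. The differences ran from 0.02 for Fbxo32 to 1.14 for Ctsl, and none passed. Without cold knockout animal 29 the differences of Fbxo32 and Foxo1 turned negative (-0.26 and -0.20), so that all 8 point one way rests on that animal. Some marker lists were also higher in the same comparison. They were 8 of 8 white adipocyte markers (median 0.77, 5 at an unadjusted p under 0.05, none passing). Of the leukocyte markers 15 of 16 were higher (median 0.33, 1 at an unadjusted p under 0.05, none passing). So were 5 of 5 erythrocyte entries (median 0.41), which were Alas2, Hbb, Hba-a3 and Hba-a2, the last listed more than once. Others were not: 4 of 9 fibroblast (median -0.017), 4 of 7 endothelial (0.0005), 2 of 9 slow fibre (-0.051) and 0 of 11 muscle fibre markers (-0.14) were higher. Leukocyte markers were also higher in knockouts at room temperature (16 of 16, median 0.37). The adipocyte markers, all listed and none at 0, summed to 426 to 767 CPM in cold controls and 487 to 1282 CPM in cold knockouts. The part of these cells in the members' levels was not tested. The members are not independent of each other, since the highest cold knockout was animal 29 or 31 for every member but Map1lc3b. For Map1lc3b it was animal 28, the animal that was lowest for Trim63, Sqstm1, Gabarapl1, Bnip3 and Ctsl. At room temperature the same contrast gave 5 members higher and 3 lower, with a median of 0.10 against -0.028 over all genes.

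Members differed in how much rats of 1 group varied. The within-group SD of log2 CPM was 1.10 for Bnip3, 0.89 for Ctsl, 0.84 for Foxo1 and 0.69 for Trim63, at the 98.1, 94.8, 93.6 and 85.9 percentile of all genes, whose median was 0.42. Fbxo32 stood at 0.55, Map1lc3b at 0.44, Sqstm1 at 0.39 and Gabarapl1 at 0.32, the last at the 28.7 percentile. Foxo1 has few reads, and counting error adds to its spread. The order by mean level was Trim63 (452 CPM), Sqstm1 (371), Gabarapl1 (265), Map1lc3b (252), Fbxo32 (248), Ctsl (77.7), Bnip3 (26.7) and Foxo1 (4.32). Gabarapl1, Map1lc3b and Fbxo32 lay within their animal-to-animal SDs of each other (75.6, 87.6 and 95.6 CPM, n = 31).

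The members were then compared animal by animal, after subtracting each group's mean log2 CPM, over 31 animals and 28 pairs. For rho, levels were instead ranked over all 31 animals and each group's mean rank was subtracted. Of the 28 pairs, 8 had a permutation p adjusted over the pairs under 0.05, and all 8 were positive. The closest pair was Bnip3 and Ctsl (Pearson r = 0.898, Spearman rho = 0.859, permutation p = 1e-05 for both, the smallest that the draws can give). It was 0.873 without the 2 animals with the most extreme Bnip3, and between 0.867 and 0.970 within each group. Trim63 also followed Ctsl (r = 0.757, rho = 0.605, permutation p = 5.0e-05 and 0.00054, adjusted 0.000467 and 0.00504; 0.643 without 2 animals), with r of 0.823, 0.686 and 0.968 in cold controls, room temperature knockouts and cold knockouts but -0.197 among room temperature controls. Without control animals 1 and 2 the pooled r of that pair was 0.854.

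Fbxo32 went with Foxo1 and, over all 31 animals, with none of the other members after adjustment. Fbxo32 and Foxo1 had r = 0.712 and rho = 0.668 (permutation p = 4.0e-05 and 0.00023, adjusted 0.000467 and 0.00322), 0.707 without the 2 most extreme animals, and r from 0.656 to 0.824 within the groups. The muscle ligases themselves were not clearly related: Fbxo32 and Trim63 had r = 0.231 and rho = 0.170 (permutation p = 0.306 and 0.414, adjusted 0.408 and 0.610). Within the groups that r was -0.847 in room temperature controls, -0.293 in cold controls, 0.022 in room temperature knockouts and 0.792 in cold knockouts, and the pooled r was -0.167 without cold knockout animals 29 and 25. The relation between the ligases thus differed in sign from group to group, which was not tested. Among cold knockouts Fbxo32 also went with Ctsl (r = 0.817) and Bnip3 (0.741), while among cold controls the values were -0.647 and -0.638.

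The other 5 pairs that passed were Sqstm1 with Ctsl (r = 0.713, rho = 0.408), Sqstm1 with Bnip3 (0.623, 0.369), Sqstm1 with Gabarapl1 (0.618, 0.443), Trim63 with Gabarapl1 (0.600, 0.347) and Trim63 with Bnip3 (0.538, 0.487). Their permutation p for r was 0.00016, 0.00122, 0.00358, 0.00976 and 0.0064 in that order, and 0.00112, 0.00683, 0.0167, 0.0342 and 0.0256 after adjustment. None of the 5 passed by rho after adjustment (0.0949, 0.179, 0.0949, 0.241 and 0.0537). Without the 2 most extreme animals of each, r was 0.549, 0.475, 0.342, 0.425 and 0.441. All 5 values were smaller without those animals. Within groups r was not always positive. In cold controls it was -0.327 for Sqstm1 with Ctsl and -0.340 for Sqstm1 with Bnip3. In room temperature controls it was -0.390 for Sqstm1 with Gabarapl1 and -0.379 for Trim63 with Bnip3. The other values were positive, from 0.101 for Trim63 with Gabarapl1 in room temperature knockouts upward. Among cold knockouts r ran from 0.744 to 0.947 for the 5 pairs.

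**Figure D3:**
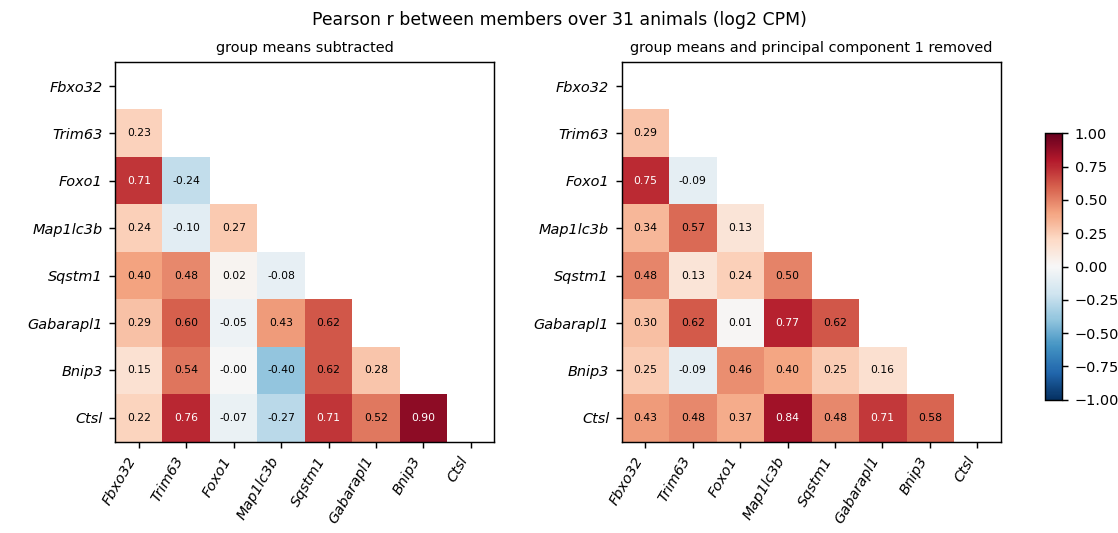
Pearson r between pairs of members over 31 animals in log2 CPM, after subtracting group means (left) and after also removing principal component 1 of all genes (right); red is positive and blue negative. On the left Bnip3 with Ctsl is the darkest cell at 0.90, and on the right Map1lc3b with Ctsl is, at 0.84, a pair that has -0.27 on the left.

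Part of the shared movement lay along the main axis of variation of all genes, the first principal component, which held 35.3% of the variance and on which the groups overlapped. Over 31 animals and 8 relations, Ctsl (r = 0.885, rho = 0.888), Bnip3 (0.859, 0.924), Trim63 (0.667, 0.607) and Sqstm1 (0.604, 0.502) rose along it and Map1lc3b (-0.641, -0.526) fell along it. Their permutation p for r was 1e-05, 1e-05, 0.0001, 0.00075 and 0.00036 in that order, and all 5 passed after adjustment over the 8 (4e-05, 4e-05, 0.000267, 0.0012 and 0.00072). Without the 2 most extreme animals r was 0.903, 0.847, 0.594, 0.530 and -0.512. Fbxo32 (0.025), Foxo1 (-0.268) and Gabarapl1 (0.230) did not pass (permutation p = 0.899, 0.150 and 0.282). Within each of the 4 groups Ctsl and Bnip3 rose and Map1lc3b fell. Trim63 had r = -0.353 in room temperature controls and Sqstm1 -0.222 in cold controls, and they rose in the other groups. Fbxo32 had -0.742 in cold controls and 0.631 in cold knockouts. Gabarapl1 had -0.734 in room temperature controls and 0.625 in cold knockouts. Foxo1 ran from -0.818 in cold controls to 0.142 in room temperature controls. Differences between groups were not tested. The component is built from the same libraries, so these values describe where the members lie on it.

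**Figure D4:**
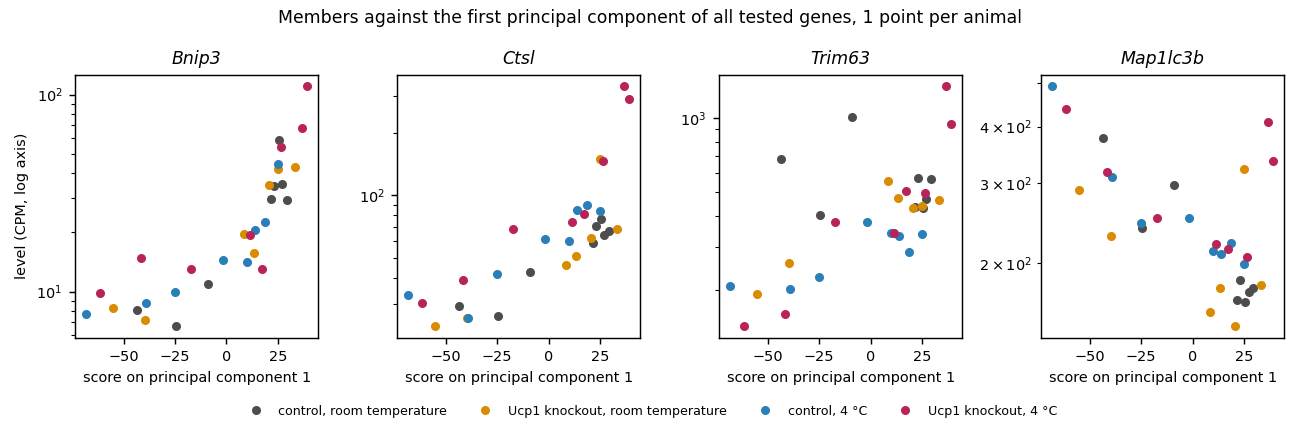
Level of Bnip3, Ctsl, Trim63 and Map1lc3b in CPM (log axis) against the score on principal component 1 of all tested genes, 1 point per animal coloured by group. Bnip3 and Ctsl climb along the axis in all 4 groups, Map1lc3b falls, and the cold knockouts 29 and 31 sit at the right end with the highest Ctsl.

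After the component was removed, 15 of the 28 pairs passed, 6 of them among the 8 that had passed before. The same slope on the component was removed in every group, though for some members its sign differed between groups. Part of the component can therefore remain within a group, so the values below are not shown to be free of it. Fbxo32 with Foxo1 had r = 0.746, and Bnip3 with Ctsl 0.579. Fbxo32 then also passed with Sqstm1 (r = 0.485, permutation p adjusted over the pairs 0.0291) and with Ctsl (0.428, adjusted 0.0465). Map1lc3b, which had r = -0.266 with Ctsl before, had 0.842 with it afterwards, and 0.772 with Gabarapl1. Before the removal, r of Map1lc3b with Ctsl was -0.821 in room temperature controls and -0.765 in cold controls. Among room temperature and cold knockouts it was 0.056 and 0.039. Trim63 with Bnip3 went from 0.538 to -0.093.

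The promoters of Bnip3 and Ctsl are shown beside each other because these members varied most closely together. They are again the stretches of 250 bases before the start in GRCr8, Bnip3 at chr1:203154963-203155212 on the minus strand and Ctsl at chr17:769854-770103 on the plus strand, 5′ to 3′.
Bnip3: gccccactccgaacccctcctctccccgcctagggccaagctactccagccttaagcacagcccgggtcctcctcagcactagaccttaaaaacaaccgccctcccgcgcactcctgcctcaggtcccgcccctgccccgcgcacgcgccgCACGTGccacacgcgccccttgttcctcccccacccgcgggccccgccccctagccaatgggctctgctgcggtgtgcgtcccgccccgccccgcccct
Ctsl: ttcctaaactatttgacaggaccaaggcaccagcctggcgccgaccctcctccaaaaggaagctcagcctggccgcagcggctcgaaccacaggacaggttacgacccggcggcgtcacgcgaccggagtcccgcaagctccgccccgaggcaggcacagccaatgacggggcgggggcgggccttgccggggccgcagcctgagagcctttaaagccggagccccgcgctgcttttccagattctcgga
The capitals in Bnip3 mark CACGTG, the E-box core read by factors such as TFEB, from -99 to -94; it reads the same on both strands. That core was found in 6.418% of the 33469 rat windows and in no other member's window. The longer TCACGTGA, the form named for lysosomal genes, which contains the core, was in 0.7768% of windows and in none of the members'. The Ctsl window held none of the 5 motifs searched, which says only that those letters are not in this stretch.

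For each member the 3 genes most like it were taken by Pearson r of group-centred log2 CPM over the 31 animals, among named genes with a mean of at least 5 CPM. Trim63 was nearest to Slc7a8, a neutral amino acid transporter (r = 0.932), followed by Slc35f5 (0.882) and Cggbp1 (0.876). Slc35f5 was also nearest to Ctsl (0.945), ahead of Eif4g3 (0.931) and Art3 (0.930). Bnip3 lay with Arcn1, a COPI coat subunit (0.968), Spcs3 of the signal peptidase (0.956) and Ppp1r2 (0.951).

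The Atg8 genes and Sqstm1 each had a proteasome subunit among their 3. These were Psma7 for Map1lc3b (0.929, after the F-box gene Fbxo31 at 0.933 and before Rpusd3 at 0.914), Psmd3 for Gabarapl1 (0.880, before Creb3 at 0.821 and Ampd3 at 0.812) and Psmb7 for Sqstm1 (0.852, after Kars at 0.859 and before Smn1 at 0.839). Foxo1 was nearest to Plekha3 (0.875), Atf6 (0.858) and Prrx1 (0.839), and Fbxo32 to Ap3b1 (0.782), Cep85l (0.772) and Ipo5 (0.726), the loosest neighbours of any member.

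The rest of the pathway was read from 6 lists of genes, ordered from the signals upstream to the lysosome. Averaged over genotypes, 11 of the 128 measured list genes passed for cold against room temperature, 9 higher and 2 lower, while 5.65% of all genes passed (edgeR, Benjamini-Hochberg over all genes). At an unadjusted p under 0.05 there were 23 list genes (18%), against 19.5% of all genes. In controls alone 0 of the 128 measured list genes passed by edgeR, against 3 with DESeq2 and 18 at an unadjusted p under 0.05 (14.1%, against 14.2% of all genes). In knockouts alone 2 of the 128 passed by edgeR, where 1.38% of all genes did, and 25 had an unadjusted p under 0.05 (19.5%, against 14.3%). These 2 were Prkaa2 and Ctsa, of which Ctsa (edgeR adjusted p = 0.0499) passed in only 10 of 31 fits that left out 1 library. For the knockout at room temperature, the knockout in the cold and the interaction 0 list genes passed by edgeR and by DESeq2, and 9, 8 and 14 had an unadjusted p under 0.05. These are 7.03%, 6.25% and 10.9% of the list genes, against 7.06%, 6.28% and 7.31% of all genes.

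Among 27 measured genes of upstream signalling, 1 rose, 1 fell and 25 did not pass, with a median of 0.095. Fkbp5, an FK506-binding co-chaperone that glucocorticoids are known to induce, rose by 0.72 ± 0.16 on the log2 scale (edgeR adjusted p = 0.00669). Its level was 23.5 ± 9.23 and 28.9 ± 8.73 CPM in room temperature controls and knockouts (SD, n = 8 and 7) and 41.2 ± 9.82 and 44.8 ± 16.1 in the cold (SD, n = 8 each). Prkaa2, the AMP-activated kinase subunit alpha 2, fell by 0.50 on the log2 scale (SE 0.13, edgeR adjusted p = 0.0141).

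In knockouts alone Prkaa2 fell from 35.7 ± 8.43 to 18.5 ± 5.07 CPM (SD, n = 7 and 8; log2 change -0.95 ± 0.18, edgeR adjusted p = 0.00472). In controls it was 29.98 ± 7.08 and 29.1 ± 4.28 CPM (-0.04, edgeR adjusted p = 0.929). The interaction was -0.91 ± 0.25 with an unadjusted p of 0.00104 and an edgeR adjusted p of 0.452, so the genotypes are not shown to differ. In controls, Sesn3, a stress-induced inhibitor of mTORC1 and a known FoxO target, had the smallest p of the list (1.002 ± 0.27, edgeR adjusted p = 0.0657).

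Of 26 measured ubiquitin ligases, conjugating enzymes and deubiquitinases other than Fbxo32 and Trim63, 2 rose, 1 fell and 23 did not pass, with a median of 0.053. Asb2, an ankyrin-repeat ligase adaptor whose excess is known to shrink muscle, fell by 0.88 on the log2 scale (SE 0.21, edgeR adjusted p = 0.0104), from 25.3 ± 10.99 and 26.3 ± 7.89 CPM at room temperature to 15.1 ± 6.30 and 12.9 ± 4.77 in the cold (SD; controls and knockouts). The deubiquitinase Usp19 rose by 0.37 ± 0.11 (edgeR adjusted p = 0.0318) and Mdm2, the ligase of p53, by 0.28 ± 0.08 (edgeR adjusted p = 0.0357). Of 31 fits that each left out 1 library, Usp19 passed in 27 and Mdm2 in 18.

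In the list of autophagy initiation and conjugation, 2 of 26 measured genes rose and 24 did not pass, with a median of -0.016. They were Pik3r4, the regulatory subunit of the class III PI3 kinase (0.32 ± 0.09, edgeR adjusted p = 0.0286), and Wipi1, which binds the lipid that kinase makes (0.38 ± 0.12, edgeR adjusted p = 0.0498). Pik3r4 passed in 27 of 31 fits that left out 1 library, and Wipi1 in 10. Wipi1 did not pass with RLE scaling, with no filter or without room temperature controls 1 and 2 (edgeR adjusted p = 0.0517, 0.0541 and 0.0801). None of the 3 other Atg8 genes passed: Gabarap had -0.25 ± 0.15, Map1lc3a 0.19 ± 0.14 and Gabarapl2 -0.02 ± 0.14. None of 13 other receptors passed, the smallest p being that of Fkbp8 (0.21 ± 0.09, edgeR adjusted p = 0.203) and then of Bnip3l (-0.19 ± 0.10, edgeR adjusted p = 0.299).

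Of 33 measured lysosome genes, 4 rose, none fell and 29 did not pass, with a median of 0.113. Glb1, the lysosomal beta-galactosidase, rose by 0.55 ± 0.10 (edgeR adjusted p = 0.00129), from 9.39 ± 1.16 and 11.4 ± 1.95 CPM in room temperature controls and knockouts to 13.9 ± 3.04 and 16.6 ± 3.72 in the cold (SD). Cathepsin B, from Ctsb, rose by 0.41 ± 0.11 (edgeR adjusted p = 0.0215), from 108 ± 25.3 and 134 ± 28.5 to 149 ± 18.7 and 171 ± 37.0 CPM. Ctsa, the protective protein cathepsin A, rose by 0.30 ± 0.07 (edgeR adjusted p = 0.0119), and Mitf, a transcription factor related to TFEB, by 0.25 (SE 0.08, edgeR adjusted p = 0.0301). Both cathepsin genes and Glb1 passed in all 31 fits that left out 1 library, and Mitf in 24.

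As given above, 4 of the 16 leukocyte markers also rose in this comparison and 12 did not pass; their part in the result was not tested. Slow fibre markers moved as well: 8 of 9 rose, and their summed level was 6124 to 16597 and 8560 to 14461 CPM in room temperature controls and knockouts and 18378 to 24815 and 13262 to 30507 CPM in the cold. Their part in the results was not tested either.

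**Figure D5:**
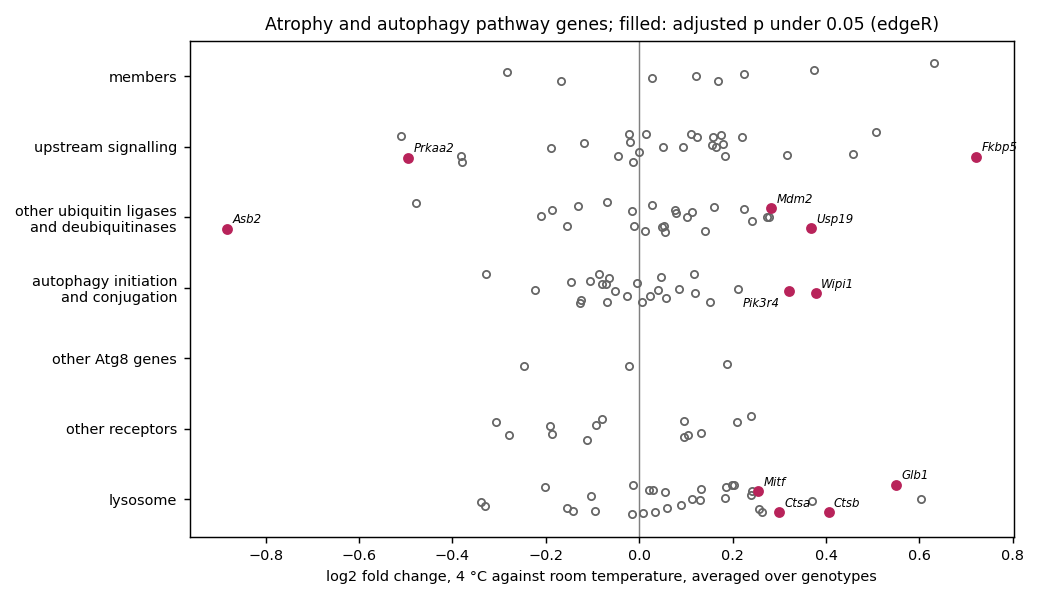
Log2 fold change for cold against room temperature averaged over genotypes for the members and for each gene of the 6 pathway lists; filled points have an adjusted p under 0.05 (edgeR). No member is filled, while 4 lysosome genes and Fkbp5 are filled to the right of 0 and Asb2 and Prkaa2 to the left.

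No list gene separated knockouts from controls after correction. In the cold, the smallest p of all lists was that of Prkaa2 (-0.65 ± 0.18, edgeR adjusted p = 0.498), then Acvr2b, a receptor of myostatin (-0.85 ± 0.26, edgeR adjusted p = 0.576). Of the 33 lysosome genes 28 were higher in knockouts in the cold, with a median of 0.140 against 0.037 over all genes, and none passed. At room temperature 17 of the 33 were higher, with a median of 0.042 against -0.028.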

How the data were processed

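RNA of 31 gastrocnemius muscles was read with a QuantSeq 3' mRNA kit, per the labels' protocols. The deposited raw table holds counts of reads per gene made by the authors. The deposited normalized table holds a signal: within each library it equals the raw count over 1 size factor (largest relative difference 5.23e-10). All tests used raw counts. DESeq2 1.22.2 and build Rnor 6.0 are named in the submitters' processing notes. Aligner, counter and strand setting: not given in the sources used here. Among listed genes the lowest total was 93 counts, so low genes had been removed before deposition. Reads of pseudogenes or overlapping genes may have been assigned to a member.

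The test was that of edgeR 4.0.16 (R 4.3.3), with TMM scaling, filterByExpr (minimum count 10, minimum total 15), and a quasi-likelihood fit of all 31 libraries with 1 mean per group and 27 residual degrees of freedom. P-values are two-sided and adjusted by Benjamini-Hochberg over 10082 genes in each contrast, threshold 0.05; the SE was obtained by dividing the change by the root of F. Log2 CPM used a prior count of 2. Correlations used 100000 permutations. Pearson r used log2 CPM with group means subtracted, and rho used ranks over all 31 libraries with group mean ranks subtracted. Scripts were tested on simulated counts.

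Alternatives were DESeq2 1.42.0, relative log expression scaling, no filter, only the groups compared, the first principal component or 1 surrogate variable (sva 3.50.0) as a covariate, leaving out control animals 1 and 2, and leaving out each library. The genes named are all listed members, the passing genes of each pathway list (up to 4 by p, or the 2 smallest p where none passed) and the 3 genes most like each member. The members and lists were chosen with earlier results of these data known. Promoters are from RefSeq, GRCr8, which was used for sequences and names only.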

Additional observations from a re-analysis of the deposited data

Results flagged for a closer look

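Of 32 groups of animals checked, 1 per member and group, 3 held an animal whose gap to its nearest neighbour was unusually large for the range of its group; chance alone flags about 1 in 20. Fbxo32 in room temperature knockout animal 15 was 174.1 CPM, while the next lowest of the 7 was 266 CPM. Gabarapl1 in room temperature knockout animal 10 was 382.9 CPM, while the next highest was 261 CPM. Gabarapl1 in cold control animal 22 was 314.6 CPM, while the next highest of the 8 was 254 CPM.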

How the results depend on the processing

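The precision is set by 7 or 8 animals per group and by the spread between them; Foxo1, with 4 to 93 reads per library, is also limited by depth. Over 48 member changes and 1808 alternatives, 1800 stayed on their side of the threshold and 8 passed where the chosen model had not; 61 alternatives changed sign, none of them called. No paired analysis was possible because the animal numbers are separate for every rat and no number is shared between groups. The causes of the shifts below were not tested.

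Members called went from 0 to 1 for cold in controls (Trim63) with only the groups compared, with principal component 1 and with 1 surrogate variable, and for cold in knockouts and averaged (Ctsl) with principal component 1 and with 1 surrogate variable. They also went to 1 for cold averaged (Map1lc3b) without both room temperature controls 1 and 2.

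All genes called for cold in controls, 86 in the chosen model, were 220 with DESeq2, 379 with principal component 1, 382 with 1 surrogate variable and 38 without controls 1 and 2. With principal component 1, 160 of those 379 were higher and 219 lower, and with 1 surrogate variable 159 and 223, against 60 and 26 in the chosen model. For cold in knockouts, 139 became 328 with DESeq2, 53 with only the groups compared, 674 with principal component 1, 658 with 1 surrogate variable and 379 without controls 1 and 2. Averaged, 570 became 1274 with principal component 1 and 1268 with 1 surrogate variable. For the knockout in the cold, 1 became 8 with DESeq2, principal component 1 or 1 surrogate variable, 0 with only the groups compared and 4 without controls 1 and 2. With DESeq2, 0 became 1 for the knockout at room temperature and 1 for the interaction.

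Pathway list genes called for cold in controls, 0 in the chosen model, were 3 with DESeq2 and 4 with either covariate. For cold in knockouts, 2 became 5 with DESeq2, 1 with another scaling (RLE), no filter or only the groups compared, 12 with either covariate and 9 without controls 1 and 2. Averaged, 11 became 19 with either covariate.

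Leaving out each library in turn, all genes called ran from 36 (without cold control 21) to 154 (without room temperature control 4) for cold in controls, from 56 (without room temperature knockout 14) to 231 (without room temperature control 2) for cold in knockouts, and from 451 to 688 averaged. They ran from 0 to 1 for the knockout at room temperature, 0 to 3 in the cold and 0 to 1 for the interaction. List genes ran from 0 to 2, 1 to 5 and 6 to 13 for cold in controls, in knockouts and averaged.

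With principal component 1 removed, r changed sign for 8 pairs: 0.565 for Trim63 and Map1lc3b, -0.0926 for Trim63 and Bnip3, 0.464 for Foxo1 and Bnip3, 0.371 for Foxo1 and Ctsl, 0.498 for Map1lc3b and Sqstm1, 0.842 for Map1lc3b and Ctsl, 0.396 for Map1lc3b and Bnip3 (from -0.395) and 0.012 for Foxo1 and Gabarapl1 (from -0.051).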
